A study of Rattus norvegicus with 2 samples.

Results

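Calmodulin, the calmodulin-dependent (CaM) kinases and calcineurin were examined in the basilar artery of rats through 9 genes, Pcp4, Camk2g, Camk2d, Camk1, Camkk2, Ppp3ca, Ppp3cb, Rcan1 and Rcan2. They were taken as the probe sets whose single gene symbol in the platform annotation is one of these names, and all 9 were found, each with 1 probe set, among 15037 genes with a named probe set. The genes were selected on their place in this pathway with the values of these arrays already seen, so their differences are a description and support nothing. A Ligation pool and a Sham pool of RNA were compared on 1 Clariom S array each. Both came from male Sprague-Dawley rats, whose common carotid arteries (CCAs) were tied on both sides in the Ligation pool and only exposed in the Sham pool, and the basilar artery was collected 4 weeks later. Each pool joined equal amounts of RNA from 4 rats, perfused with PBS at collection, and the labels give their age as 13 months. As a pool gives 1 value for its rats together, there is no spread between animals, no test and no p-value. No difference between the 2 arrays has a replicate array, and none of the 9 genes has a replicate check.

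Calmodulin is the small protein through which a rise in cell calcium reaches many enzymes. Calcium-loaded calmodulin switches on the CaM kinases, which phosphorylate ion channels, contractile proteins and transcription factors, and the phosphatase calcineurin, which dephosphorylates the NFAT transcription factors so that they enter the nucleus. In arterial smooth muscle the same signal drives contraction through myosin light chain kinase, while CaM kinase II and calcineurin with NFAT are known for their part in the change of smooth muscle cells from the contractile to the proliferating state.

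The values are linear signal intensities, and each difference below is taken on the log2 scale as Ligation minus Sham. The median signal over 23188 gene probe sets was 110.4 on the Ligation array and 106.4 on the Sham array. Background was read from 23 antigenomic probe sets, which match no rat transcript and reached 157 on the Ligation array and 151 on the Sham array. A signal no higher than the brightest of them is called within background. Values after Ligation and after Sham are those of the 1 array of each group. Among 13 housekeeping genes the differences lay between -0.50 and 0.83 with an SD of 0.37. Actb (β-actin) was at the ceiling of both arrays with 999963 after Ligation and 998298 after Sham. Eef1a1 was at the ceiling too, with 999191 after Ligation and 997528 after Sham. Gapdh, a glycolytic enzyme, had a difference of 0.54. Among the 7751 named genes above background on at least 1 array, the middle 95% of differences lay between -1.16 and 1.35.

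Of the 9 genes, 2 were under 0.5-fold in the Ligation array, Pcp4 and Camk2g, and none was over 2.0-fold. Over all named genes, 2.97% were under 0.5-fold and 4.04% were over 2.0-fold, and among those above background on at least 1 array the shares were 3.50% and 6.19%. At 1.5-fold, 4 of the 9 were lower (Pcp4, Camk2g, Camkk2 and Rcan2) and 2 were higher (Ppp3ca and Rcan1), where 10.8% of all named genes were lower and 12.4% were higher by as much. The Ligation signal of Camkk2 was within background, and its bound of at least 1.47-fold lower falls short of 1.5-fold. The median difference of the 9 genes was -0.50, against -0.01 over all named genes, and 7 of the 9 were below 0, where 51.1% of all named genes and 43.5% of those above background were. In tissue RNA, fewer cells of a type and less RNA per cell cannot be told apart.

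**Figure D1:**
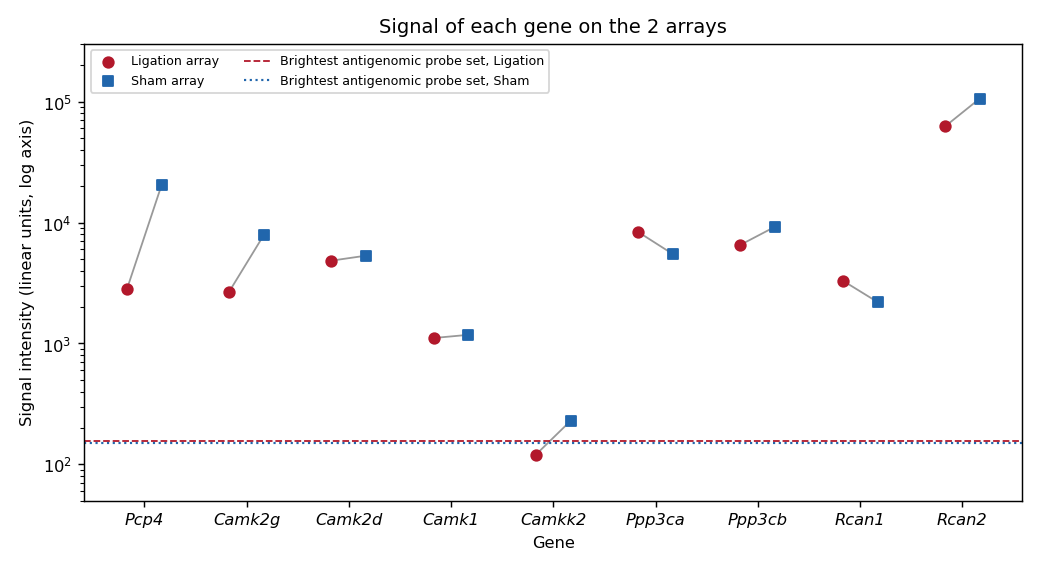
Signal intensity of each of the 9 genes (log axis, linear units), with the Ligation array as circles and the Sham array as squares joined by a line. Dashed and dotted lines mark the brightest antigenomic probe set of each array, 157 (Ligation) and 151 (Sham), and the Ligation signal of Camkk2, 120.5, is the 1 point below them.

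Pcp4 encodes a small protein, also called PEP-19, that binds calmodulin through an IQ motif and speeds the exchange of calcium on it. Its signal was 2805 after Ligation and 20507 after Sham. The Ligation signal was therefore 7.31-fold lower, a difference of -2.87, and both signals were more than 17 times the brightest antigenomic probe set. Only 5 of the 15037 named genes, Pcp4 included, had a difference this low or lower.

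Of the related IQ peptides, those measured above background were lower in the Ligation array. Pcp4l1, a paralog of Pcp4, had a signal of 9881 after Ligation and 36143 after Sham, which is 3.66-fold lower. Nrgn, which encodes the calmodulin-binding protein neurogranin, had 829 after Ligation and 1590 after Sham, a difference of -0.94. Gap43, the growth-cone protein that binds calmodulin by a similar motif, had 115 after Ligation and 85.8 after Sham, both within background. Thus the signals of Pcp4, Pcp4l1 and Nrgn were lower in the Ligation array and that of Gap43 was not measured above background.

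The sequence upstream of Pcp4 is shown because this gene had the largest difference of the 9, and that of Rcan1 because its promoter is a known target of calcineurin and NFAT. Both are the 250 bases before the gene start in the RefSeq table of build GRCr8, written 5′ to 3′ on the strand of the gene. Pcp4 lies on the plus strand at chr11:49269936-49270185 and Rcan1 on the minus strand at chr11:45118237-45118486. Capitals mark the NFAT core GGAAA, the cyclic AMP response element TGACGTCA and the TATA box TATAAA, each searched on both strands.
Pcp4: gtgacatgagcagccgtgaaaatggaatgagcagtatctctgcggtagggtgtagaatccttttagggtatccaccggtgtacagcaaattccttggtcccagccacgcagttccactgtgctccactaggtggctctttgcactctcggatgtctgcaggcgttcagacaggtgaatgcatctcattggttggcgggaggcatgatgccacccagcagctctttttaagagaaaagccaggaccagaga
Rcan1: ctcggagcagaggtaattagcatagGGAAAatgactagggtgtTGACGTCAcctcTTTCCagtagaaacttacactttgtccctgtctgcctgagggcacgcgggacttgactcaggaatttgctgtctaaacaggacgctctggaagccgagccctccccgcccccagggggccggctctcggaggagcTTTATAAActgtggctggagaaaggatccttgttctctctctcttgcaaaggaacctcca

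In the Rcan1 window the NFAT core began at -225 and, on the opposite strand, at -195, counted from the gene start, and the cyclic AMP response element lay between them at -207. A TATA box was read on both strands, in overlapping letters that began at -60 and -58. The Pcp4 window held none of these 3 motifs and no CArG box, the motif of serum response factor. Of 33465 windows of the same length in the table, not filtered by kind of gene, 56.9% held the NFAT core, 1.59% the cyclic AMP response element, 12.9% the TATA box, and 501 windows held a CArG box. A match is a run of letters and not a shown binding site, and the table gives 1 start per gene, which was not checked against the start used in this artery.

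CaM kinase II is an assembly of subunits that stays active after calcium falls, and its γ and δ subunits are the main ones of vascular smooth muscle. Camk2g, the γ subunit, had a signal of 2680 after Ligation and 7918 after Sham. This is 2.95-fold lower, with a difference of -1.56, and 0.632% of named genes had a difference as low or lower. Among named genes above background on at least 1 array the share was 1.10%. Camk2d, the δ subunit, had 4843 after Ligation and 5328 after Sham, a difference of -0.14 that is smaller than the SD of the housekeeping genes. The 2 subunits thus had unequal differences, a gap that cannot be tested with 1 array per group. The array reads each gene as a whole, so splice forms of these subunits were not measured.

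The subunits best known from neurons lay close to background. Camk2a, the α subunit, had 202 after Ligation and 216 after Sham, and Camk2b, the β subunit, had 113 after Ligation, within background, and 172 after Sham. Of the 2 inhibitor proteins of CaM kinase II, Camk2n1 had 1936 after Ligation and 1806 after Sham (1.07-fold), and Camk2n2 was within background on both arrays. Camk2g was the 1 gene of the 6 on this list under 0.5-fold, and none was over 2.0-fold.

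Camk1 encodes CaM kinase I, which acts on transcription and the cytoskeleton and needs phosphorylation by a CaM kinase kinase for full activity. Its signals were 1110 after Ligation and 1179 after Sham, a difference of -0.09. Camkk2 encodes the kinase that phosphorylates CaM kinase I, CaM kinase IV and the energy sensor AMPK. It had 120.5 after Ligation, within background, and 230 after Sham, which is 1.52 times the brightest antigenomic probe set of that array. Set against the brightest antigenomic probe set of the Ligation array, its signal was at least 1.47-fold lower there. The measured difference was -0.93, just short of 0.5-fold, and it is the least well measured of the 9.

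Of the other kinases on this list, Camk1d, the δ form of CaM kinase I, had 459 after Ligation and 228 after Sham, 2.01-fold higher. It was the 1 gene of 8 past 2-fold, and it was inside 2-fold with median centring (1.94-fold), quantile normalization (1.86-fold), the trend removed (1.89-fold) or 64 added to each signal (1.79-fold). Camk1g, Pnck, Camk4, Camkk1 and the kinase-like Camkv were within background on both arrays, so this branch was read above background through Camk1, Camk1d and, on the Sham array, Camkk2.

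Calcineurin has a catalytic A subunit, which the genes Ppp3ca, Ppp3cb and Ppp3cc encode, and a calcium-binding B subunit. Ppp3ca, the α form, had 8356 after Ligation and 5477 after Sham, 1.53-fold higher. Ppp3cb, the β form, had 6547 after Ligation and 9259 after Sham, 1.41-fold lower. Their differences of 0.61 and -0.50 lay on opposite sides of 0, 1.11 apart, and each was inside the middle 95% of genes above background.

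Ppp3cc, the catalytic γ form, had 1746 after Ligation and 1463 after Sham, and Ppp3r1, the regulatory B subunit, had 1826 after Ligation and 2027 after Sham. Their differences of 0.25 and -0.15 were smaller than the SD of the housekeeping genes. Ppp3r2, the B subunit of testis, was within background on both arrays. None of the 5 subunit genes passed 2-fold, and their median difference was 0.02.

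The Rcan proteins bind calcineurin and, at high levels, inhibit it, and Rcan1 is itself induced by calcineurin through NFAT. Rcan1 had 3309 after Ligation and 2202 after Sham, a difference of 0.59 with the higher signal in the Ligation array. Rcan2, which is less tied to calcineurin activity, had 62369 after Ligation and 106190 after Sham, 1.70-fold lower. The 2 regulators therefore had differences of 0.59 and -0.77, 1.36 apart. For Rcan2, 5.98% of named genes had a difference as low or lower, and for Rcan1, 12.3% had one as high or higher. Among named genes above background on at least 1 array these shares were 6.01% and 17.6%.

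Rcan3, the remaining family member, had 884 after Ligation and 593 after Sham, 1.49-fold higher. Cabin1, a nuclear protein that binds and inhibits calcineurin, had 186 after Ligation and 371 after Sham, 0.501-fold and so just short of the 2-fold line, which it passed with median centring (0.483-fold), quantile normalization (0.467-fold), the trend removed (0.471-fold) and, barely, housekeeping centring. As reported, none of the 10 regulator and anchor genes measured passed 2-fold, with 5 above 0 and 5 below 0.

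**Figure D2:**
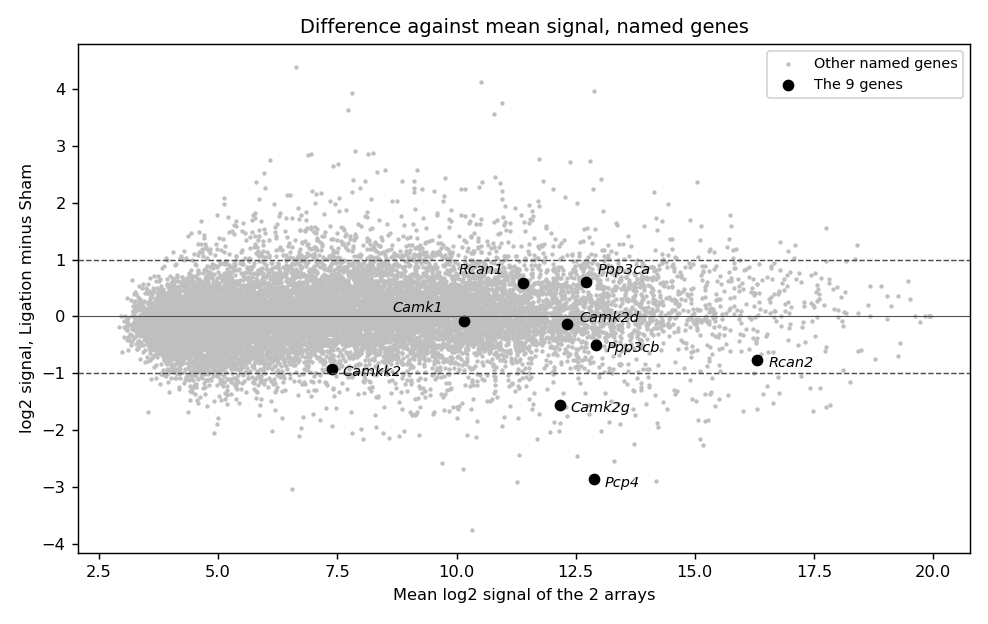
Difference (log2 signal, Ligation minus Sham) against the mean log2 signal of the 2 arrays for the 15037 named genes (grey) with the 9 genes in black and dashed lines at 2-fold. Pcp4 at -2.87 and Camk2g at -1.56 lie below the lower line, and the other 7 lie between the lines.

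Calmodulin itself is encoded by several genes with the same protein product. Calm2 had 4304 after Ligation and 7301 after Sham, a difference of -0.76. Calm3 had 22694 after Ligation and 16619 after Sham, a difference of 0.45. These 2 genes had differences on opposite sides of 0. The calmodulin-like Calml4 had 127 after Ligation, within background, and 196 after Sham, at least 1.25-fold lower.

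Among the NFAT factors that calcineurin activates, Nfatc3 had 2703 after Ligation and 2288 after Sham, and Nfatc1 had 508 after Ligation and 543 after Sham. Their differences were 0.24 and -0.10. Nfatc4 had 197 after Ligation and 133, within background, after Sham, at least 1.30-fold higher. Nfatc2 was within background on both arrays. Nfat5, which responds to osmotic stress and not to calcineurin, had 6061 after Ligation and 7787 after Sham. None of the 5 passed 2-fold, and their median difference was -0.10.

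Further enzymes and targets of calmodulin signaling differed in both directions. Eef2k, the calmodulin-dependent kinase that slows peptide elongation, had 2416 after Ligation and 8907 after Sham, 3.69-fold lower. Mylk, the myosin light chain kinase, had 398 after Ligation and 1066 after Sham, 2.68-fold lower. Prkaa2, the AMPK catalytic subunit α2 that Camkk2 phosphorylates, had 1813 after Ligation and 5312 after Sham, 2.93-fold lower, whereas the α1 subunit gene Prkaa1 had a difference of 0.50. Nos3, the endothelial nitric oxide synthase, which calmodulin activates, had 2191 after Ligation and 797 after Sham, 2.75-fold higher. Nos1, the neuronal synthase, had 347 after Ligation and 88.1, within background, after Sham, at least 2.30-fold higher. The paper also measured Nos3 and Nos1 by real-time PCR and reported both as higher in ligated rats. Most but not all genes it measured this way were called significantly higher, and its text does not name the exception.

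Leaving out the 9 genes, 62 genes of these lists had a named probe set, of which 4 (6.45%) were under 0.5-fold and 3 (4.84%) were over 2.0-fold. Those shares stand beside 2.97% and 4.04% of all named genes. Of the 62, 43 were above background on at least 1 array, with the same 4 and 3 genes, 9.30% and 6.98%, beside 3.50% and 6.19% of all genes above background. The median difference of the 62 genes was -0.11, and 36 of the 62 (58.1%) were below 0, beside 51.1% of all named genes. The lists were written with earlier results of these arrays known.

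**Figure D3:**
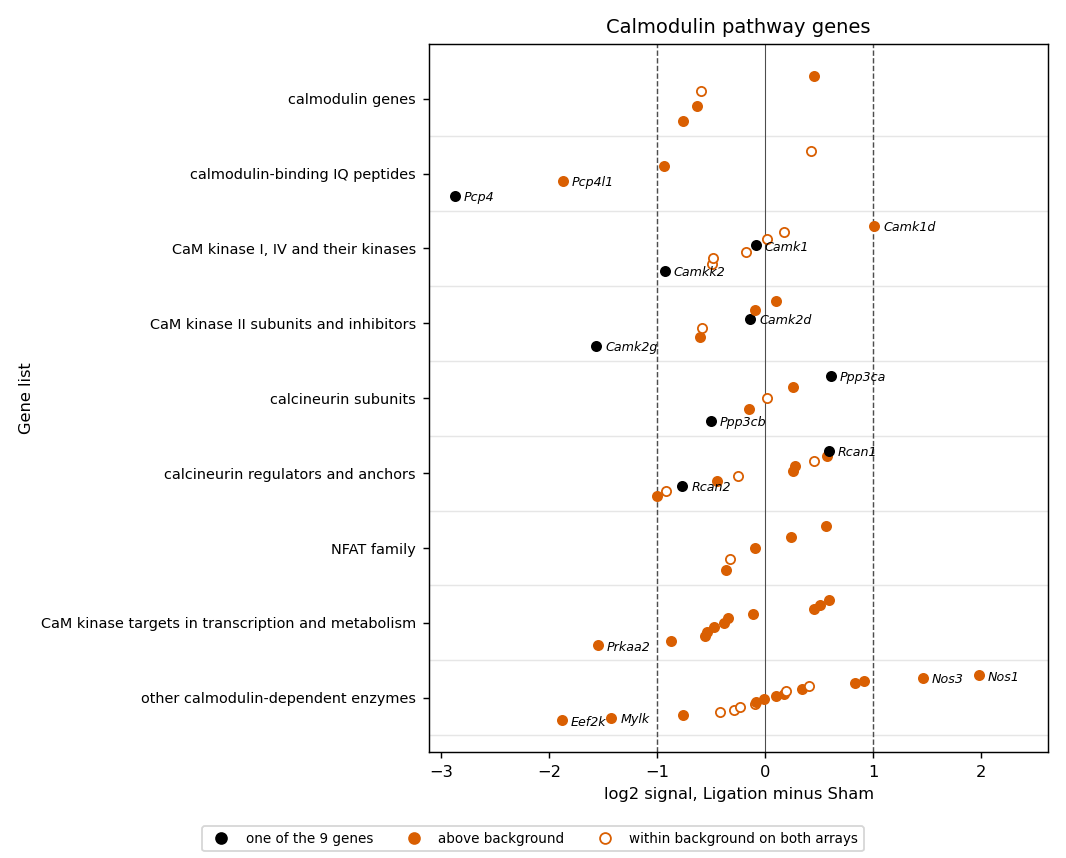
Difference (log2 signal, Ligation minus Sham) of every gene with a named probe set on the 9 lists of the calmodulin pathway. Black points are the 9 genes, open points are within background on both arrays, and dashed lines mark 2-fold. Pcp4, Pcp4l1, Camk2g, Eef2k, Prkaa2 and Mylk lie under the lower line, and Nos1, Nos3 and Camk1d over the upper one.

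Markers of several cell types differed between the same arrays. All 10 smooth muscle markers were above background on both arrays, so the defining markers of an artery wall were present. All 10 were lower in the Ligation array and 6 were under 0.5-fold, with a summed signal of 1999593 after Ligation and 2991175 after Sham. Smtn, which encodes smoothelin, had the largest difference of this list at -2.27, and Tagln, its brightest gene, had -0.10. The signals of Tagln, 832768 after Ligation and 895395 after Sham, were not far below the array ceiling, which may narrow its difference. The signals of Pcp4 and Camk2g, both known from smooth muscle, were thus lower in the array in which the smooth muscle markers were lower as well, and the part of these markers in the result was not tested.

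The markers of several other cell types were higher. Of the endothelial markers 4 of 9 were over 2.0-fold (summed signal 170722 after Ligation and 94612 after Sham), of the astrocyte markers 7 of 9 (94709 after Ligation, 46819 after Sham), of the oligodendrocyte and Schwann cell markers 7 of 8 (206455 after Ligation, 88056 after Sham) and of the macrophage markers 3 of 10 (44195 after Ligation, 24674 after Sham). These counts include Mog and Cd163, which were within background on both arrays, and Emcn and Mag, which were within background after Sham and for which the bounds are at least 1.86-fold and 1.73-fold higher. The largest differences were those of Vwf (2.78), Aqp4 (4.12), Mbp (3.76) and Mrc1 (1.59). Fibroblast and leptomeningeal markers were all above 0 with none past 2-fold (2006774 after Ligation, 1746320 after Sham), led by Col1a1 at 0.84. Of 6 pericyte markers, 1 was over 2.0-fold, Rgs5 with a difference of 1.61, and 2 were under 0.5-fold. The brightest genes of these lists had differences of 0.57 for Cdh5 (endothelial), 0.31 for Gja1 (astrocyte), 1.15 for Pmp22 (oligodendrocyte and Schwann cell), 0.90 for C1qb (macrophage), 0.00 for Ptgds (fibroblast and leptomeningeal, at the ceiling of both arrays) and 0.32 for Pdgfrb (pericyte). Single bright genes made up most of some of these sums. Pmp22 gave 189643 after Ligation and 85563 after Sham, and Gja1 gave 52323 after Ligation and 42280 after Sham. No marker had a signal of 0.

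Neuron markers bear on Pcp4, Nrgn and the CaM kinases, which neurons also express. None of the 12 was past 2-fold in either direction, and their summed signal was 5415 after Ligation and 4855 after Sham. Snap25, a synaptic protein and their brightest gene, had 2964 after Ligation and 2961 after Sham. Slc17a7 and Gad1, the markers of excitatory and inhibitory neurons, were within background on both arrays, as were 5 of the 12 in all.

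**Figure D4:**
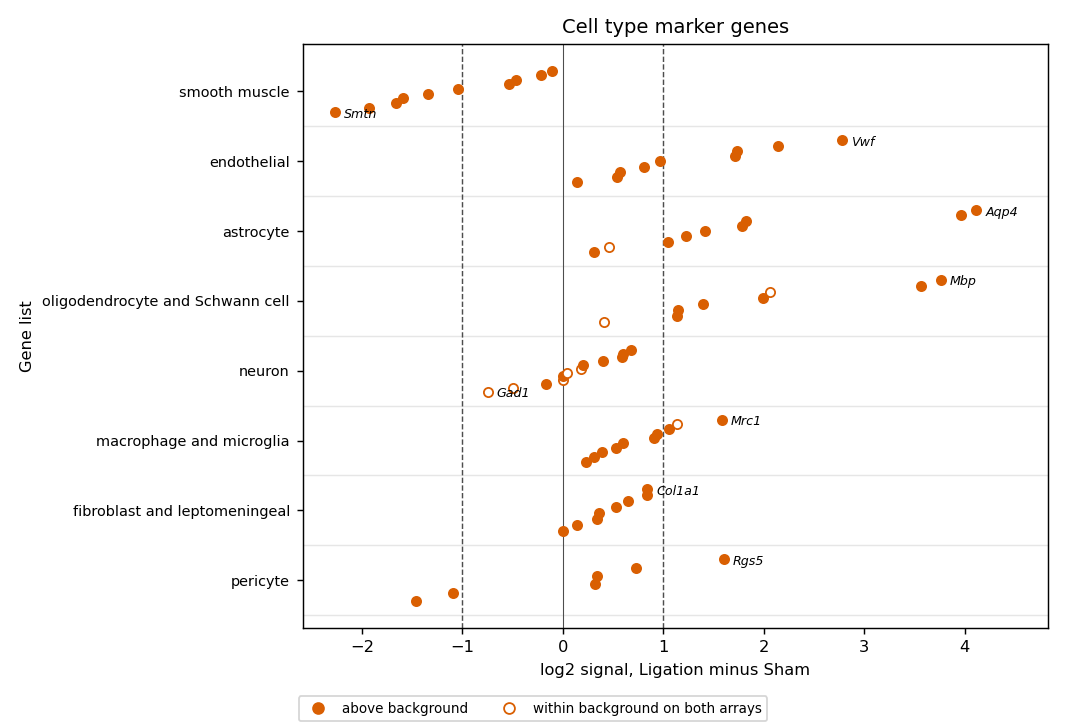
Difference (log2 signal, Ligation minus Sham) of the cell type markers, 1 row per list, with open points within background on both arrays and dashed lines at 2-fold. All 10 smooth muscle markers lie below 0, all endothelial, astrocyte, myelin and macrophage markers lie above 0, and the 12 neuron markers lie between the dashed lines.

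The genes whose pair of signals was nearest to each of the 9 were found by the Euclidean distance of their log2 signals over the 2 arrays. Nearest to Pcp4 were Gucy1a1, a subunit of soluble guanylate cyclase, at a distance of 0.58, and Kcnma1, the pore of the BK potassium channel, at 0.64. Nearest to Camk2g were Gucy1b1, the partner subunit of that cyclase, at 0.17 and Exoc6b at 0.18. Gucy1a1 had 2535 after Ligation and 13902 after Sham, and Gucy1b1 had 2879 after Ligation and 8688 after Sham. The nearest genes were Iscu and Sema3c for Camk2d, Parl and Preb for Camk1, Exoc8 and Tshb for Camkk2, Zmpste24 and Mpdu1 for Ppp3ca, Far1 and Hnrnpc for Ppp3cb, Ostf1 and Nek7 for Rcan1, and Sh3bgrl1 and Prss23 for Rcan2. With 2 arrays such a match is only a similar pair of levels.

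The 9 genes lie on 6 rat chromosomes, and 3 pairs share a chromosome, 1 of which, Camk2d and Ppp3ca on chromosome 2, was not examined further. Camk2g and Ppp3cb lie near each other on chromosome 15, with 8 protein-coding genes between them in RefSeq order. Of these 8, 7 had a named probe set, 4 of them above 0 and 3 below 0, with a median difference of 0.03. Their values ran up to 0.83 for Fut11 and down to -0.92 for Myoz1, which was within background. None of the 7 passed 2-fold.

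Rcan1 and Pcp4 lie on chromosome 11 with 34 protein-coding genes between them. A named probe set was there for 24, and of these 12 were above background, 1 was over 2.0-fold (Erg, an endothelial transcription factor, with 2129 after Ligation and 919 after Sham) and 1 was under 0.5-fold (Clic6, with a Ligation signal within background). Clic6 had 71.6 after Ligation and 164 after Sham. The Sham signal was barely above 157, the brightest antigenomic probe set of the Ligation array, so the 2-fold call of Clic6 is not secured above background. The median difference of the 24 was -0.17. The difference of Pcp4, -2.87, was lower than that of any measured gene between, the lowest of which was -1.20 for Clic6.

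Of the 9 genes, 8 had an upstream window in the RefSeq table, all but Camkk2. The share of G and C in them ran from 52.4% for Pcp4 to 80.8% for Camk2g, beside a median of 51.2% over the whole table. The table was not filtered by kind of gene, so its medians and shares are not limited to protein-coding genes such as these. CpG pairs numbered 7 in the Pcp4 window and 30 in that of Camk2g, beside a median of 5. The SP1 core GGGCGG was found 7 times in the window of Camk2g, 4 times in that of Ppp3cb and 3 times in that of Camk2d. It was found 1 time each in those of Ppp3ca and Rcan1 and in none of those of Pcp4, Camk1 and Rcan2. Of all windows, 30.5% held it. Outside the Rcan1 window, the NFAT core was found 1 time, in that of Ppp3cb, where 56.9% of all windows held it. No window of the 8 held a CArG box, which 501 of the 33465 windows held.

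As reported and with median centring, quantile normalization, the trend removed or 64 added to each signal, each of the 9 genes kept its direction. Median centring, which moved every gene by 0.053, and 64 added to each signal could not have reversed any of them. Pcp4 lay between -2.99 and -2.84, Camk2g between -1.67 and -1.54, Rcan2 between -0.97 and -0.77 and Ppp3cb between -0.62 and -0.50. Ppp3ca lay between 0.50 and 0.61 and Rcan1 between 0.52 and 0.59. Camkk2 had the widest range, from -1.01 with quantile normalization to -0.67 with 64 added to each signal. Camk1 and Camk2d stayed within 0.24 of 0.

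**Figure D5:**
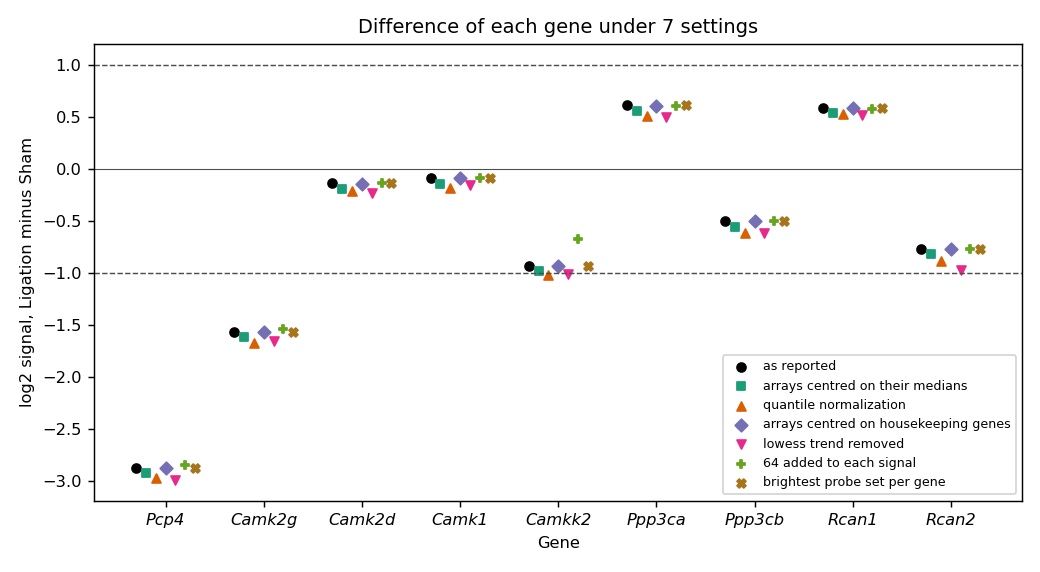
Difference (log2 signal, Ligation minus Sham) of each of the 9 genes as reported and under 6 other settings, with dashed lines at 2-fold. Each gene has 1 probe set, so the brightest probe set gives the reported value again. Only those of Camkk2 lie on both sides of a dashed line, reaching from -1.01 to -0.67.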

How the data were processed

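Equal amounts of RNA from 4 rats were pooled per group, 50 ng was labeled, and each pool was hybridized to 1 Clariom S array. The submitters' processing notes name RMA and Affymetrix Expression Console, and version 3.2 of a microarray analysis tool appears in the study's methods. Other versions and the genome build are not given in the sources used here. The deposited values are linear signal intensity per probe set. After 1646 control probe sets were set aside, 15049 of 23188 gene probe sets carried 1 gene symbol each, all matched by Entrez identifier to RefSeq (GRCr8), and 8139 had none. Log2 was taken with no further scaling, probe sets of a gene were averaged, and genes were counted past 2-fold. The computation was tested on simulated data.

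The 9 genes, the gene lists and the rule for named genes were chosen with earlier results of these data known. Named were the 9 genes, list genes past 2-fold above background (otherwise the largest difference of a list), the calmodulin, NFAT and B subunit genes, the 2 nearest genes of each, Actb, Gapdh, and for marker lists the brightest gene and the largest difference. Other genes are examples picked with their values in view. As there were no replicates, the SD of 13 housekeeping genes, 0.37, was used only as a yardstick for the size of differences. It is the scatter between different genes on the same arrays and does not measure the spread between animals or between replicate arrays. Actb and Eef1a1, at the ceiling of both arrays, are among the 13 and may narrow it. Calculations ran in Python 3.11.15 with pandas 2.3.3 and numpy 2.4.6, the lowess trend came from statsmodels 0.14.6, and plots from matplotlib 3.10.9.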

Additional observations from a re-analysis of the deposited data

How the results depend on the processing

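The alternatives were centring on array medians, quantile normalization, centring on housekeeping genes, removal of the lowess trend (fraction 0.3), 64 added to each signal, the brightest probe set per gene, keeping genes above background on at least 1 array only, other fold thresholds and the mean in place of the median. The brightest probe set could not move the 9 genes, which have 1 probe set each. Housekeeping centring moved every gene by 0.0024, the difference that Actb and Eef1a1 had at the ceiling. Under the 4 other settings, all 36 values of the 9 genes kept their direction and stayed within 0.37, the SD of the housekeeping genes, of the reported value. Part of this was fixed in advance. Median centring moved every gene by 0.053, too little to reverse any of the 9 or to move one by 0.37. Adding 64 to both signals of a gene cannot reverse its direction. The median difference of the 9 genes lay between -0.62 and -0.50, and their mean was -0.63. At a 1.5-fold threshold 4 of the 9 were lower (Camkk2 among them, for which the bound is 1.47-fold) and 2 were higher, and of the 62 other list genes 14 were lower and 6 were higher. Of all named genes, 10.8% were lower and 12.4% were higher at that threshold. At 3-fold 1 of the 9, Pcp4, was lower, and of the 62 other genes 2 were lower and 1 was higher. The share of all named genes past 3-fold was not counted, so these 3-fold counts cannot be set beside it. With quantile normalization or the trend removed, Camkk2 passed 0.5-fold too, so that 3 of the 9 were lower. Of all named genes, 448 were under 0.5-fold with quantile normalization and 441 with the trend removed. The same count was 522 with median centring and 449 with housekeeping centring. For the 62 other genes the count of lower genes was 5 or 6 with another scaling or the trend removed, against 4 as reported, Cabin1 being added in each and Nrgn with quantile normalization or the trend removed. The count of higher genes was 2 in place of 3 with median centring, quantile normalization, the trend removed or 64 added, where Camk1d was inside 2-fold. No paired analysis was possible because each group has 1 array. With 64 added to each signal, 338 of all named genes were over 2.0-fold and 211 were under 0.5-fold, against 607 and 447 as reported. Each group has 1 array of pooled RNA, and Camkk2 is the member nearest to background.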
